A study of Mus musculus with 22 samples.

Results

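Expression of 6 genes of the Serpina3 family, Serpina3f, Serpina3g, Serpina3h, Serpina3i, Serpina3m and Serpina3n, was examined in the distal colon of mice with spontaneous chronic colitis. The genes were taken by symbol from a count table of 46078 genes that holds 14 Serpina3 genes in all. They were chosen because Serpina3f was far higher in inflamed colon, so their differences between groups, and whether these passed the study's limits, are given as a description and support nothing. RNA sequencing was performed on 22 libraries, 11 from males and 11 from females, each from a separately labelled mouse. C57BL/6 mice (n = 8, 4 males and 4 females, 14 weeks old) were the wild-type controls. Winnie mice (n = 7, 3 males and 4 females, 14 weeks old) carry a point mutation in Muc2, the gene of the main secreted intestinal mucin, and their colon was labelled inflamed. Winnie-Prolapse mice (n = 7, 4 males and 3 females, 18 weeks old) carry the same mutation, had rectal prolapse, and their colon was labelled severely inflamed. The age and the group of Winnie-Prolapse mice cannot be told apart. Values are whole segments of bowel wall, in which more cells of a type and more RNA per cell cannot be told apart.

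Serpins inhibit proteases as suicide substrates. An exposed reactive centre loop near the carboxyl end is offered as bait, the protease cuts it, and the inhibitor then traps the enzyme in an inactive complex, so the sequence of the loop sets which protease is caught. Humans have a single SERPINA3 gene, which encodes the acute phase plasma protein alpha-1-antichymotrypsin, whereas mice have a cluster of related copies whose loops have diverged. Serpina3n is the secreted member best known as an inhibitor of granzyme B, cathepsin G and neutrophil elastase, and Serpina3g, also called Spi2A, is an intracellular inhibitor of cysteine cathepsins known to be induced by interferon gamma and NF-kB. In the liver, Serpina3n is an acute phase gene under IL-6 and STAT3.

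All 14 Serpina3 genes lay on chromosome 12 (GRCm38, GENCODE M21), and the 6 members spanned chr12:104214544-104414329, a stretch of 200 kb. In order along the plus strand they were Serpina3f (ENSMUSG00000066363, chr12:104214544-104221129), Serpina3g (ENSMUSG00000041481, chr12:104236245-104241939), Serpina3h (ENSMUSG00000041449, chr12:104247905-104253669), Serpina3i (ENSMUSG00000079014, chr12:104263122-104269372), Serpina3m (ENSMUSG00000079012, chr12:104338486-104394257) and Serpina3n (ENSMUSG00000021091, chr12:104406729-104414329). Serpina3h is annotated as a transcribed unprocessed pseudogene and the other 5 as protein coding. The annotated span of Serpina3m includes Serpina3k and Serpina3l-ps, and 60 exon bases of Serpina3m are shared with Serpina3k.

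The copies differ where the protease meets the inhibitor. The stretch of the last coding exon that encodes the reactive centre loop is given for the 5 coding members, on the plus strand of GRCm38 from GENCODE M21. Capitals mark the bases that differ from Serpina3n in the alignment.
Serpina3n: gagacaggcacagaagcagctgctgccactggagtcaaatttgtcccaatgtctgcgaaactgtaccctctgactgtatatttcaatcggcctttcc
Serpina3f: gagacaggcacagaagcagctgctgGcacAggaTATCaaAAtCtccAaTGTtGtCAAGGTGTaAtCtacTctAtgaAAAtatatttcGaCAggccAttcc
Serpina3g: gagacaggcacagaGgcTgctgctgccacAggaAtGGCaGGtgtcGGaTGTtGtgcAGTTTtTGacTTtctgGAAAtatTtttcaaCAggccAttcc
Serpina3i: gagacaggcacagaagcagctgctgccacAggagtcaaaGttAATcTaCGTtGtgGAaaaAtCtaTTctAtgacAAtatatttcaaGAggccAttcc
Serpina3m: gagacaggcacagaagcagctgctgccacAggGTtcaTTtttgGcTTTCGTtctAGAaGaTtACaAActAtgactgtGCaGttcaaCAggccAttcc

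These stretches lay at chr12:104413442-104413538 in Serpina3n, chr12:104220239-104220338 in Serpina3f, chr12:104241066-104241162 in Serpina3g, chr12:104268474-104268570 in Serpina3i and chr12:104393763-104393859 in Serpina3m. Over 97 aligned bases, Serpina3f was 69.1% identical to Serpina3n, Serpina3g 67%, Serpina3i 77.3% and Serpina3m 71.1%. In the rest of the aligned coding sequence (554 bases for Serpina3g, 1130 or more for the others) the same pairs were 85.8%, 87.2%, 85.8% and 86.4% identical. The most alike pair among the members, Serpina3f and Serpina3i, was 79.4% identical in the stretch and 92% outside it. Few stretches of a read's length were the same between genes: of all 100-base windows of each gene's transcripts, 3.4% in Serpina3f, 3.49% in Serpina3g, 3.6% in Serpina3h, 2.25% in Serpina3i, 6.09% in Serpina3m and 0.204% in Serpina3n also occurred in another Serpina3 gene. The windows that Serpina3m shared were all shared with Serpina3k. How the authors' counting treated reads that fit more than 1 gene is not given in the sources used here, so the low counts of Serpina3h, Serpina3i and Serpina3m are uncertain.

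Serpina3f, Serpina3g and Serpina3i shared a short element upstream of their starts. The 250 bases before the (first) start are shown for Serpina3f, Serpina3g, Serpina3i and Serpina3n (RefSeq, GRCm38.p6, plus strand), with matches to the STAT element TTCNNNGAA and to the NF-kB element in capitals. Serpina3h and Serpina3m have no entry in the table used.
Serpina3f: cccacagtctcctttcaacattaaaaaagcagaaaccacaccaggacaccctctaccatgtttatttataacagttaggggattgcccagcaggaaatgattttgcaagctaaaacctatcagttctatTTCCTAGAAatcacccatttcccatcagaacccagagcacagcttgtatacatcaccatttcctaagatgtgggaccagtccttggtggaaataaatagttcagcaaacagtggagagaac
Serpina3g: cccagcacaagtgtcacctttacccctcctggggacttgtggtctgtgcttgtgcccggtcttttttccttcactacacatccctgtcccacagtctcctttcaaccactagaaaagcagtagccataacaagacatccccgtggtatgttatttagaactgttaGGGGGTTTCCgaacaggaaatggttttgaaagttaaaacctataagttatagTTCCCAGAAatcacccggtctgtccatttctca
Serpina3i: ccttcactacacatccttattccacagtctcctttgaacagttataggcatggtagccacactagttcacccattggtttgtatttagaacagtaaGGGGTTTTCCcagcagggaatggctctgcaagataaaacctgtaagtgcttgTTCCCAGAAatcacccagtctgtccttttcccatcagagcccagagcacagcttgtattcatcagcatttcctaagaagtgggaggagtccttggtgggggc
Serpina3n: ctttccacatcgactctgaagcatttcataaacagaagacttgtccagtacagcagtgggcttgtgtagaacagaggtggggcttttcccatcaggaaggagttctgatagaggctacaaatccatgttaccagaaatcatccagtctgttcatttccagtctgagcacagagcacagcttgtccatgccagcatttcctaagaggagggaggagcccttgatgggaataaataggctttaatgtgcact

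These windows lay at chr12:104214294-104214543, chr12:104235897-104236146, chr12:104262872-104263121 and chr12:104406458-104406707. The STAT element, which reads the same on both strands and is bound by factors of the STAT family, was matched once in Serpina3f (TTCCTAGAA, 121 to 113 bases before the start), once in Serpina3g (TTCCCAGAA, 33 to 25 bases before) and once in Serpina3i (TTCCCAGAA, 102 to 94 bases before). It was not matched in the window of Serpina3n, nor in those of the other cluster genes Serpina3a, Serpina3b, Serpina3c and Serpina3j. Of 32851 windows of this length in the mouse table, 2306 (7.02%) held this element. The NF-kB element, searched by its usual degenerate form on both strands, was matched in Serpina3g (GGGGGTTTCC) and Serpina3i (GGGGTTTTCC) and in 7.25% of all windows, and overlapped no STAT match. The interferon-response element (ISRE core), searched by name on both strands, was matched in no window of the family and in 2.98% of all windows. A match says only that these letters are present.

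Serpina3n, Serpina3g and Serpina3f made up nearly all of the members' counts, and all 3 were higher in inflamed colon. Levels are given as CPM, the count scaled to the library total, from libraries of 24.8 to 36.3 M counts. In this range 3 counts, the upper limit behind a count of 0, correspond to 0.0825 to 0.121 CPM, which covers counting error only. One control, C57BL/6 replicate 7, stood apart. Its 7 neutrophil markers summed to 4.17 CPM against 243 to 359 CPM in the other 7 controls, a sum that in C57BL/6 is mostly Ly6g. Its 8 macrophage markers summed to 59.6 against 105 to 139 CPM, and its 9 colon epithelium markers to 19600 against 12300 to 14700 CPM. Without this control, Serpina3f, Serpina3g and Serpina3n differed from C57BL/6 by 5.14, 2.55 and 1.73 in Winnie and by 7.32, 4.22 and 3.43 in Winnie-Prolapse (log2).

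Serpina3f was close to this limit in healthy colon. The lowest, median and highest of the 8 C57BL/6 libraries were 0.0952, 0.198 and 0.376 CPM, from 3 to 11 counts. In the 7 Winnie libraries they were 0.23, 3.58 and 20.2 CPM, and in the 7 Winnie-Prolapse libraries 15.5, 25.6 and 71.1 CPM. All 7 Winnie-Prolapse libraries and 6 of 7 Winnie libraries lay above every C57BL/6 library, and the exception, Winnie replicate 5, was within the control range. Mean levels were 0.2 ± 0.0991 CPM (SD, n = 8), 7.31 ± 7.81 CPM (SD, n = 7) and 32.9 ± 19 CPM (SD, n = 7), so the spread among Winnie mice was as wide as their mean.

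Serpina3g, the intracellular cathepsin inhibitor, was measurable in every library. C57BL/6 libraries held 1.33, 2.39 and 6.21 CPM (lowest, median, highest), Winnie libraries 3.94, 11.9 and 33.9 CPM, and Winnie-Prolapse libraries 26.7, 47.5 and 107 CPM. All 7 Winnie-Prolapse and 6 of 7 Winnie libraries were above the control range, with Winnie replicate 5 again inside it. Means were 2.83 ± 1.58 CPM (SD, n = 8), 16.8 ± 11.7 CPM (SD, n = 7) and 53.1 ± 25.8 CPM (SD, n = 7).

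Serpina3n, the secreted inhibitor of granule proteases, was the most abundant member in each group. C57BL/6 libraries held 5.95, 8.66 and 15.4 CPM (lowest, median, highest), Winnie libraries 11.5, 15.9 and 60.6 CPM, and Winnie-Prolapse libraries 37.9, 64.2 and 247 CPM. Winnie-Prolapse did not overlap C57BL/6, 5 of 7 Winnie libraries exceeded every control, and 4 of 7 Winnie-Prolapse libraries exceeded every Winnie library. Means were 8.98 ± 3.01 CPM (SD, n = 8), 29.3 ± 21.7 CPM (SD, n = 7) and 95.8 ± 74.1 CPM (SD, n = 7).

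**Figure D1:**
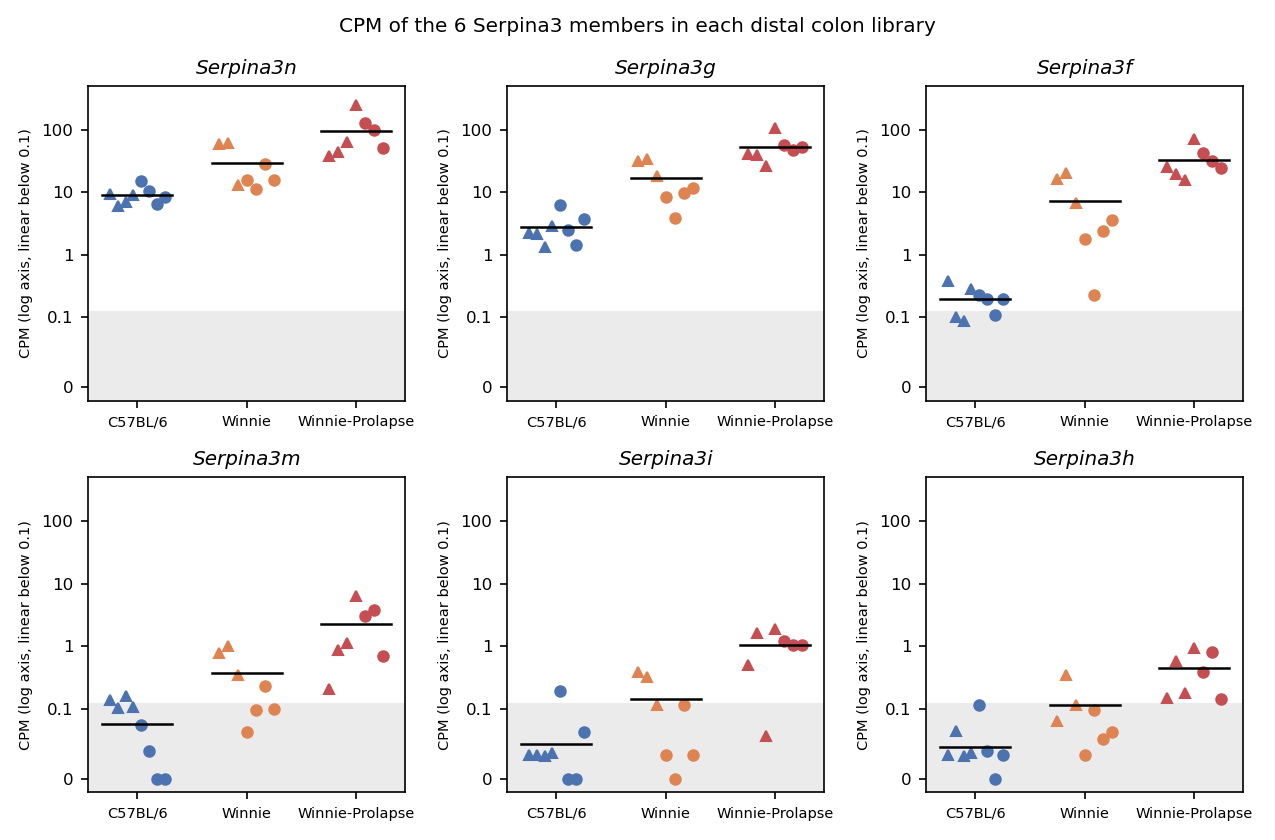
CPM of each member in every library (log axis above 0.1 CPM, linear below). Circles are females, triangles males, black lines group means, and the grey band ends at 0.121 CPM, the highest value of 3 counts in any library. Serpina3f goes from 0.0952 to 0.376 CPM in C57BL/6 to 15.5 to 71.1 CPM in Winnie-Prolapse, and the 3 members of the lower row stay at or below 6.38 CPM.

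The other 3 members were scarce. Serpina3m was at 0 to 0.159 CPM in C57BL/6, 0.0675 to 1.03 CPM in Winnie and 0.207 to 6.38 CPM in Winnie-Prolapse. Serpina3i was at 0 to 0.193 CPM, 0 to 0.385 CPM and 0.0605 to 1.92 CPM. The pseudogene Serpina3h was at 0 to 0.116 CPM, 0.0338 to 0.352 CPM and 0.147 to 0.959 CPM. In C57BL/6 these 3 genes had 18, 11 and 10 counts summed over 8 libraries, against 473, 219 and 94 counts over 7 Winnie-Prolapse libraries. Serpina3m and Serpina3h did not overlap between C57BL/6 and Winnie-Prolapse, and Serpina3i overlapped through 1 Winnie-Prolapse library, replicate 3, with 2 counts. Serpina3k, which shares exon bases with Serpina3m, was at most 0.434 CPM in any library and was highest in C57BL/6.

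Between genes, levels were compared per kilobase of exon. In C57BL/6 the order was Serpina3n (4.35 ± 1.46 CPM per kb, SD, n = 8), Serpina3g (1.34 ± 0.749), then Serpina3f (0.0872 ± 0.0433), Serpina3m (0.0453 ± 0.0349), Serpina3h (0.0313 ± 0.0237) and Serpina3i (0.0222 ± 0.0278). Neighbours from Serpina3f downwards overlapped in mean ± SD and the first 3 did not. In Winnie the order of the first 3 was kept, at 14.2 ± 10.5, 7.99 ± 5.55 and 3.19 ± 3.41 CPM per kb (SD, n = 7), with overlap between neighbours. In Winnie-Prolapse the levels were 46.4 ± 35.9, 25.2 ± 12.2 and 14.4 ± 8.31 CPM per kb (SD, n = 7), again with overlap between neighbours. Serpina3m (1.35 ± 1.3), Serpina3i (0.477 ± 0.283) and Serpina3h (0.32 ± 0.231) followed.

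The make-up of the family's counts differed between healthy and inflamed colon. Of the counts of the 6 members, Serpina3f supplied 1.66 ± 0.709% in C57BL/6 (SD over 8 libraries), 10.7 ± 6.24% in Winnie (SD over 7) and 18.2 ± 3.09% in Winnie-Prolapse (SD over 7). Its lowest Winnie-Prolapse share, 14.4%, was above its highest C57BL/6 share, 3.08%. Serpina3n supplied 74.6 ± 5.36%, 56.2 ± 12.8% and 48.8 ± 9.6% in the same order, and its shares in C57BL/6 (67.1% to 80.7%) did not overlap those in Winnie-Prolapse (36.1% to 59.6%). Serpina3g supplied 22.4 ± 5.37%, 32 ± 7.98% and 31 ± 7.57%, with overlap between the groups. The summed level of the 6 members was 12.2 ± 4.57 CPM in C57BL/6, 54 ± 40.8 CPM in Winnie and 186 ± 120 CPM in Winnie-Prolapse.

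**Figure D2:**
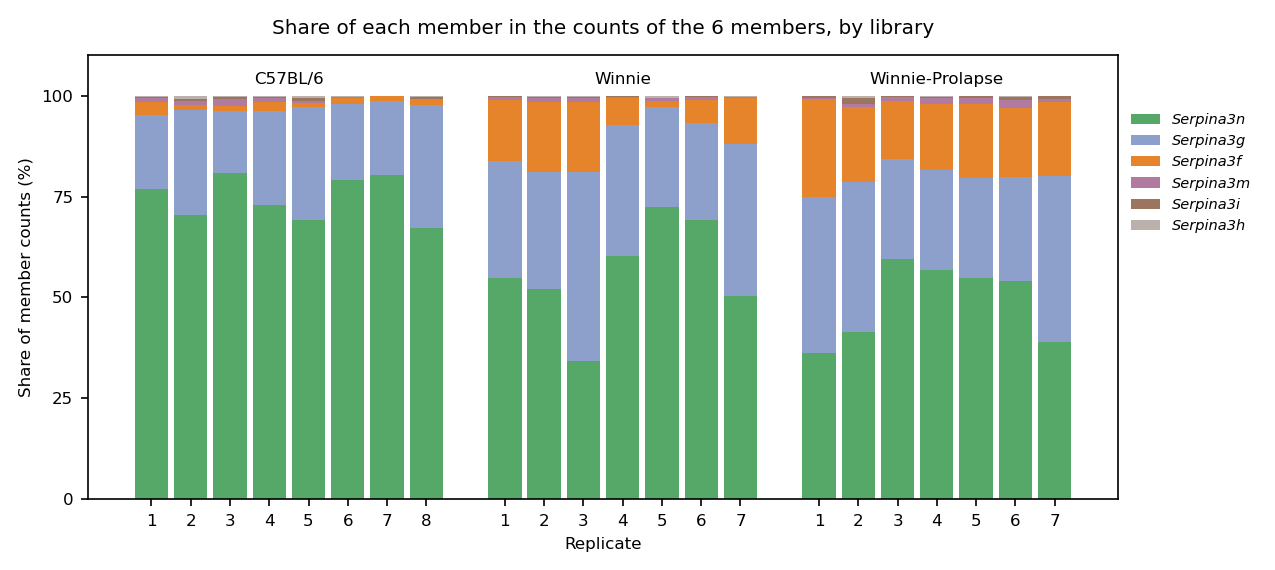
Share of each member (%, vertical axis) in the counts of the 6 members, 1 bar per library, grouped by C57BL/6, Winnie and Winnie-Prolapse. Serpina3f takes 1.04% to 3.08% in C57BL/6 and 14.4% to 24.4% in Winnie-Prolapse, while in Winnie it ranges from 1.45% to 17.4%.

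Whether Winnie colitis changed colon gene expression was addressed by comparing Winnie with C57BL/6 at the same age, with a gene called at an adjusted p under 0.001 and a change of at least 1.5-fold. Serpina3f was higher by 5.23 ± 0.74 on the log2 scale (± SE), Serpina3g by 2.65 ± 0.43 and Serpina3n by 1.79 ± 0.37. These 3 of the 6 members passed the filter on low counts. In edgeR 0 were called, where 0.0868% of 17289 genes tested (15 genes) were called higher and 0.00578% lower. DESeq2 called all 3 at these limits (adjusted p = 5.14e-11, 1.76e-08 and 3.93e-05). With sex as a covariate edgeR called Serpina3f (adjusted p = 0.000837). How many other genes passed under these 2 settings is not given here. At an adjusted p under 0.05, edgeR without the covariate called all 3, where 7.42% of genes were called higher and 8.53% lower. Without the 3 Winnie males, a setting added after seeing the data, the differences were 3.46, 1.76 and 1.15, still called at 0.05. Within females alone, however, Serpina3g (1.43 ± 0.48, adjusted p = 0.194 in edgeR) and Serpina3n (0.95 ± 0.35, adjusted p = 0.202) were not called even at 0.05, and Serpina3f did not pass the filter, where 0.00579% of genes were called higher. Within males alone the differences were 6.08 ± 0.53 for Serpina3f, 3.73 ± 0.30 for Serpina3g and 2.55 ± 0.46 for Serpina3n, and all 3 were called at 0.05, where 11.8% of genes were called higher. No member was without overlap between these groups, where 0.463% of genes were higher and 1.17% lower without overlap. Serpina3f passed the filter mostly through the Winnie group. Without the filter, Serpina3m was higher by 2.30 ± 0.65, Serpina3i by 1.60 ± 0.73 and Serpina3h by 1.37 ± 0.54 (log2 ± SE), from few counts. Their C57BL/6 means were under the limit that 3 counts set, so the sizes of these differences are uncertain. The members' own contrast chose them, so nothing is read from their counts of calls.

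The comparison of Winnie-Prolapse with C57BL/6 gave the largest differences. Serpina3f was higher by 7.40 ± 0.38, Serpina3g by 4.30 ± 0.34 and Serpina3n by 3.48 ± 0.38 (log2 ± SE). These 3 members passed the filter and were called, where 9.84% of 17397 genes were called higher and 8.47% lower (16.7% and 17.7% at an adjusted p under 0.05). Serpina3f passed the filter through the Winnie-Prolapse group, where it was high, so nothing is read from its call. Without the filter, Serpina3m was higher by 4.88 ± 0.72, Serpina3i by 4.37 ± 0.63 and Serpina3h by 3.32 ± 0.54. Their C57BL/6 means, 0.0779, 0.0494 and 0.0448 CPM, were under the limit that 3 counts set, so the sizes of these differences are uncertain. Of the members, 5 did not overlap between these groups, where 6.5% of tested genes were higher and 9.45% lower without overlap. The 5 include Serpina3h and Serpina3m, which did not pass the filter and so are not among the tested genes. Leaving out any 1 of the 15 libraries kept Serpina3f between 7.15 and 7.61, Serpina3g between 4.09 and 4.57 and Serpina3n between 3.12 and 3.64, all called. In males alone Serpina3n was not called (3.65 ± 0.59, adjusted p = 0.00302 in edgeR). In females alone Serpina3g (4.08 ± 0.43, adjusted p = 0.00107 in edgeR) and Serpina3n (3.35 ± 0.38, adjusted p = 0.0014) were not called. The share of all genes called in the fits of 1 sex or with 1 library left out is not given here. Nothing about the members is therefore read from their calls in those fits.

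Severe disease was set against milder disease by comparing Winnie-Prolapse with Winnie. Serpina3f was higher by 2.18 ± 0.67, Serpina3g by 1.66 ± 0.41, Serpina3n by 1.70 ± 0.50, Serpina3i by 2.78 ± 0.65 and Serpina3m by 2.60 ± 0.74 (log2 ± SE). In edgeR none of these 5 tested members was called, as was none of 17041 genes (0%) in either direction. DESeq2 called Serpina3i at these limits (2.84 ± 0.68, adjusted p = 0.000943). At an adjusted p under 0.05, edgeR called Serpina3g, Serpina3i, Serpina3m and Serpina3n and not Serpina3f, where 4.27% of genes were called higher and 2.72% lower. No member was without overlap, where 0.411% of genes were higher and 0.552% lower without overlap. Serpina3i and Serpina3m, at 0 to 14 and 2 to 32 counts in Winnie, passed the filter mostly through Winnie-Prolapse, so nothing is read from their calls. The differences were unequal between the sexes, and this inequality was not tested. In males alone they were 1.16 ± 0.58 for Serpina3f, 0.91 ± 0.46 for Serpina3g, 1.11 ± 0.78 for Serpina3n, 1.77 ± 0.93 for Serpina3i and 1.51 ± 1.02 for Serpina3m, and none was called at 0.05 (adjusted p = 0.823 for each in edgeR), where 0% of genes were called higher. In females alone they were 4.03 ± 0.64, 2.63 ± 0.33, 2.36 ± 0.39, 4.43 ± 0.58 and 4.32 ± 0.69 in the same order, and all 5 were called at 0.05, where 8.09% of genes were called higher. The calls at 0.05 over both sexes were close to the limit and changed with the setting. With sex as a covariate Serpina3f was called (2.55 ± 0.64, adjusted p = 0.0377 in edgeR) and Serpina3n was not (adjusted p = 0.0543), and DESeq2, limma-voom and the fit of all 3 groups also called Serpina3f (adjusted p = 0.0062, 0.0301 and 0.0151). When each of the 14 libraries was left out in turn, Serpina3f was called in 3 fits, Serpina3g in 8, Serpina3i in 13, Serpina3m in 6 and Serpina3n in 5, and without Winnie replicate 4 none was called (adjusted p = 0.0545 to 0.0996). Without Winnie-Prolapse replicates 4 and 6 together, a setting added after seeing the data, none of the 5 members was called at 0.05, with differences of 1.81 for Serpina3f, 1.36 for Serpina3g, 2.50 for Serpina3i, 1.62 for Serpina3m and 1.13 for Serpina3n. The share of all genes called with the sex covariate, other methods, all 3 groups or libraries left out is not given here. Nothing about the members is therefore read from their calls in those fits. The 3 comparisons share libraries and are not independent of each other.

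**Figure D3:**
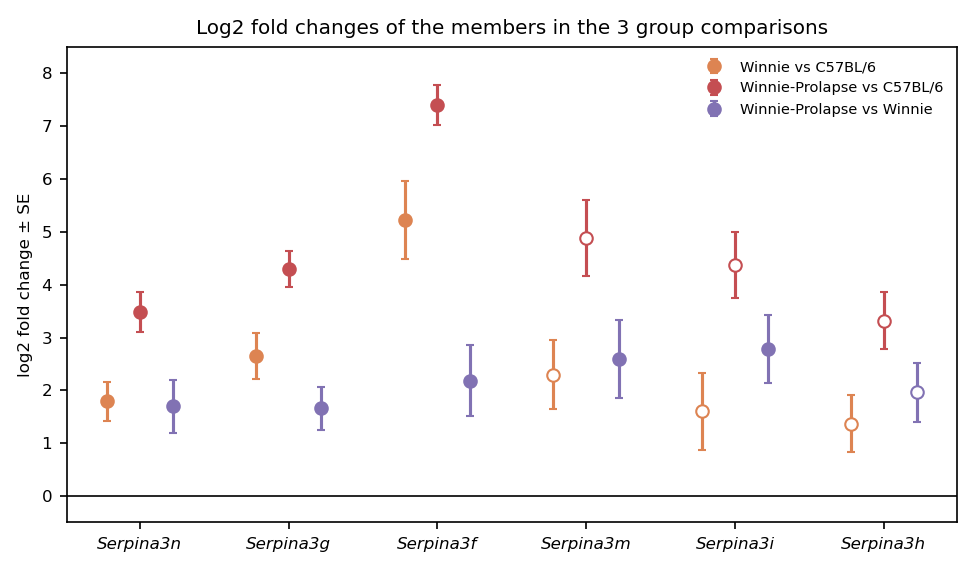
Log2 fold change (vertical axis, points, with SE as bars) of each member in the 3 comparisons of groups. Filled points passed the filter on low counts and open points come from the fit without it. Serpina3f has the largest differences from C57BL/6, 5.23 in Winnie and 7.40 in Winnie-Prolapse.

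Sex was not used in choosing the members and was tested. Among Winnie mice, Serpina3f was at 16.3, 20.2 and 6.67 CPM in the 3 males and at 1.79, 0.23, 2.39 and 3.58 CPM in the 4 females. Serpina3g was at 31.7, 33.9 and 17.9 CPM in these males and at 8.54, 3.94, 9.92 and 11.9 CPM in these females. For both genes the Winnie males and females did not overlap, as in 14.6% of 17289 genes, which were likewise higher in all 3 males. Serpina3n overlapped, at 59.4, 60.6 and 13.1 CPM in males and 15.9, 11.5, 28.5 and 15.9 CPM in females.

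The difference between Winnie and C57BL/6 was larger in males by 2.29 ± 0.62 for Serpina3g (edgeR interaction test, adjusted p = 0.0943), by 2.51 ± 1.06 for Serpina3f (adjusted p = 0.227) and by 1.59 ± 0.63 for Serpina3n (adjusted p = 0.202). None passed an adjusted p of 0.05, which 47 of 17289 genes (0.272%) did, and 3200 genes had an unadjusted p under 0.05. Serpina3g passed with DESeq2 (adjusted p = 0.011) and without C57BL/6 replicate 7, the control that stood apart (adjusted p = 0.0384), and its adjusted p ranged up to 0.295 when other libraries were left out. The summed level of the 18 interferon gamma pathway genes was 3450, 2190 and 2440 CPM in the 3 Winnie males and 1280, 1020, 1530 and 2910 CPM in the 4 females, and its part in the members' difference was not tested. In Winnie-Prolapse the interaction was 0.56 ± 0.61 for Serpina3g, -0.36 ± 0.80 for Serpina3f and 0.32 ± 0.74 for Serpina3n (adjusted p = 1 for each in edgeR), where 0% of 17397 genes passed, and DESeq2 called 0 members. Over all groups, males exceeded females by 1.04 ± 0.48 for Serpina3f (edgeR, adjusted p = 0.966), and no member passed, where 14 genes (0.0788%) did.

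Variation among mice of the same group was not used in choosing the members either. With each group's mean removed from log2 CPM over the 22 libraries, Serpina3f and Serpina3g had r = 0.874, Serpina3g and Serpina3n 0.743, and Serpina3f and Serpina3n 0.703. Serpina3m was most like Serpina3n (0.788) and Serpina3i most like Serpina3g (0.754). These values are descriptions over 22 libraries, in which RNA of whole tissue, depth and cell make-up are shared. Sex was not removed, and Winnie males and females did not overlap for Serpina3f and Serpina3g. For Serpina3f, 3 Winnie libraries (replicates 1, 2 and 5) lay farthest from their group mean.

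**Figure D4:**
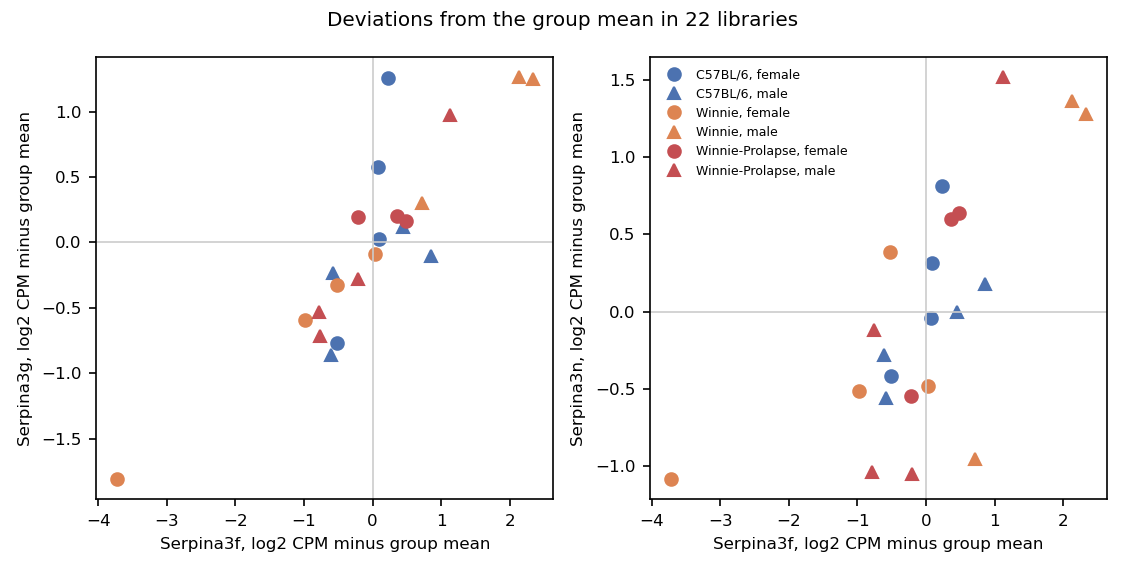
Deviation of Serpina3g (left) and Serpina3n (right) from the group mean against that of Serpina3f, in log2 CPM, 1 point per library (colours for groups, circles females, triangles males). Serpina3g follows Serpina3f (r = 0.874) and Serpina3n does so less closely (r = 0.703).

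Among the 14026 genes whose mean log2 CPM reached 1, the 5 most like Serpina3f in this measure included Nsf, a factor of vesicle fusion (r = 0.944), Tap1, the peptide transporter of antigen presentation (0.893), F830016B08Rik (0.886) and Ccl7, a monocyte-attracting chemokine (0.878). For Serpina3g they were Foxa1, a transcription factor of epithelium (0.919), Slfn8 (0.914), Lyn, a kinase of myeloid and B cells (0.902), Havcr2, which encodes the receptor TIM-3 (0.897), and Tmem229b (0.896). For Serpina3n they were Arrb2, which encodes beta-arrestin 2 (0.897), Igsf6 (0.88), Fxyd5 (0.877), Tlr13, a receptor of bacterial RNA (0.852), and Desi2 (0.848). No gene was among the 5 for more than 1 member. The 5 named for Serpina3f depended on the measure, as 0 of them were among its 5 highest by rank correlation.

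Gene lists differed in their likeness to the members. The 18 genes of the interferon gamma pathway (the cytokine, its receptor, signalling genes and known targets) had a median r of 0.79 to Serpina3f, 0.72 to Serpina3g and 0.48 to Serpina3n. The IL-6 family and STAT3 list gave 0.53, 0.42 and 0.55, and the NF-kB list 0.51, 0.59 and 0.50. Neutrophil markers gave 0.70, 0.70 and 0.66, and macrophage markers 0.55, 0.55 and 0.58. Colon epithelium markers were near the median of all genes, at -0.02, -0.16 and -0.07 against 0, 0.01 and -0.01, and smooth muscle markers were opposite, at -0.44, -0.47 and -0.53.

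**Figure D5:**
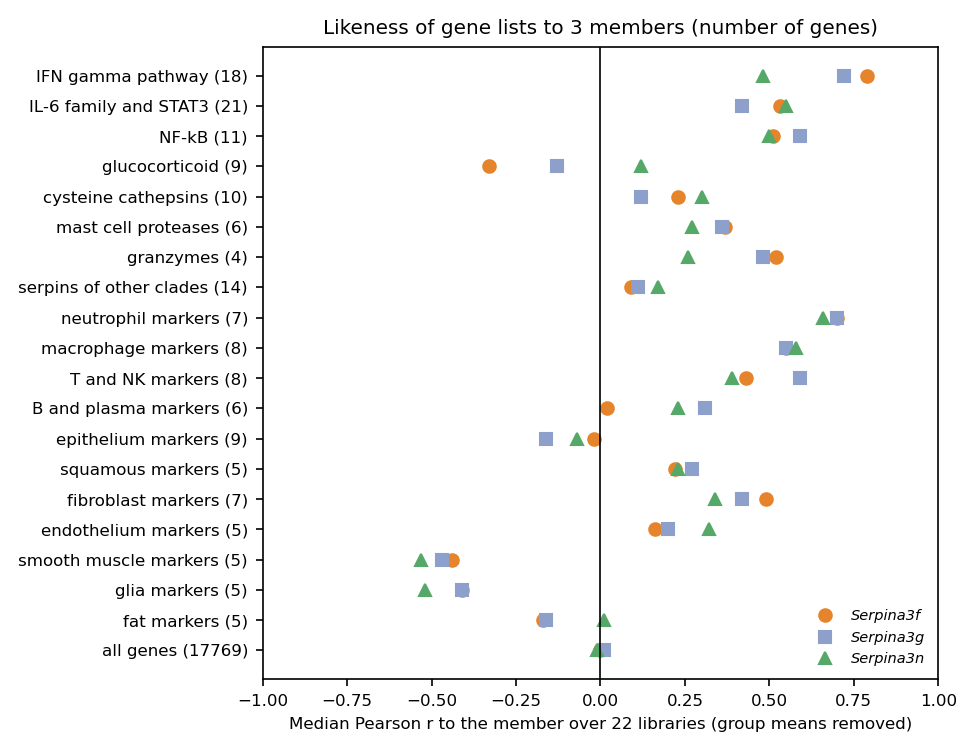
Median r (horizontal axis) of each gene list to Serpina3f, Serpina3g and Serpina3n over 22 libraries with group means removed, with the number of genes in brackets. The interferon gamma pathway list is at 0.79, 0.72 and 0.48, and smooth muscle markers are at -0.44 to -0.53.

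The pathways known to induce these serpins were measured beside them. Of the interferon gamma pathway list, 15 of 18 tested genes rose in Winnie-Prolapse against C57BL/6 and 0 fell (median log2 fold change 3.43, against -0.01 over all genes). Ifng, the cytokine itself, was at 4.28 CPM in Winnie-Prolapse and at 0.00841 CPM, under the limit that 3 counts set, in C57BL/6, so that no fold is given (adjusted p = 2.55e-07 in edgeR), and the GTPase Gbp2 went from 33.4 to 710 CPM (log2 4.47 ± 0.27, adjusted p = 1.29e-08). Irf1 also rose, by 1.38 ± 0.13 (adjusted p = 1.44e-06), whereas the receptor genes Ifngr1 (-0.44 ± 0.14) and Ifngr2 (-0.20 ± 0.15) were not called. In Winnie, 1 of 17 list genes was called, and 14 at an adjusted p under 0.05 (median 2.57, all genes -0.01).

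Of the IL-6 family and STAT3 list, 12 of 20 tested genes rose in Winnie-Prolapse and 0 fell (median log2 3.56). Osm, the cytokine oncostatin M, rose by 6.53 ± 0.92 (adjusted p = 3.87e-05 in edgeR), Lcn2, which encodes the acute phase protein lipocalin-2, by 7.96 ± 1.0 (adjusted p = 1.44e-05), Saa3 by 6.54 ± 0.80 (adjusted p = 1.11e-05) and Stat3 by 0.65 ± 0.08 (adjusted p = 1.46e-05). Il6 was at 4.49 CPM in Winnie-Prolapse and 0.0272 CPM in C57BL/6 and did not pass the filter, and Saa1 (-0.92 ± 0.53) was not called. In Winnie, 0 of 17 genes were called (7 at an adjusted p under 0.05, median 0.68). The list therefore had a smaller median in Winnie than the interferon list, and this difference was not tested.

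Of the NF-kB list, 5 of 11 genes rose in Winnie-Prolapse, 0 fell and the median was 0.50. They included Il1b, the gene of interleukin-1 beta, at 0.887 and 104 CPM in C57BL/6 and Winnie-Prolapse (log2 6.93 ± 0.60, adjusted p = 4.83e-07 in edgeR), and Tnf at 3.16 and 26.1 CPM (3.13 ± 0.52, adjusted p = 0.000152). Nfkb1 (0.50 ± 0.09) fell short of the 1.5-fold limit. Glucocorticoids also induce Serpina3n in other tissues, and known glucocorticoid targets gave 1 higher and 1 lower of 9 (median -0.06), the lower being Klf9 (-0.85 ± 0.14, adjusted p = 0.000145).

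RNA of protease genes, both the known targets named above and others of the same lists, was present at uneven levels. Of the neutrophil granule proteases, RNA was hardly detected. Elane, Ctsg and Prtn3 had mean levels of 0.0482, 0.0349 and 0.238 CPM in Winnie-Prolapse and none passed the filter, and Ctsg was at 0 in all C57BL/6 libraries. The proteins were not measured, so these levels do not say how much of the proteases was present. Gzmb, which encodes granzyme B, rose from 0.257 to 3.83 CPM (log2 4.00 ± 0.38, adjusted p = 1.14e-06 in edgeR), and Gzma rose by 3.11 ± 0.50 (adjusted p = 0.000125). They were the 2 genes called of 3 tested in the granzyme and perforin list, and the other tested gene was lower at an adjusted p under 0.05. Of the mast cell proteases, 3 of 5 tested rose, among them Mcpt1 (2.62 ± 0.43, adjusted p = 0.000132) and Mcpt2 (3.85 ± 0.56, adjusted p = 5.16e-05), and the chymase Cma1 was not called (0.77 ± 0.35). The cysteine cathepsins were abundant in each group, with summed levels of 1090 to 1490 CPM in C57BL/6 and 1440 to 1790 CPM in Winnie-Prolapse. Among these 10 genes, 2 rose, including Ctsc (1.81 ± 0.16, adjusted p = 5.08e-07), 1 fell, and Ctsb (0.36 ± 0.09) and Ctsl (-0.52 ± 0.14) were not called. In Winnie, edgeR called 0 genes of the protease lists at 0.001, and at an adjusted p under 0.05 it called 3 of 4 mast cell proteases, 1 of 3 granzyme and perforin genes and 2 of 10 cathepsins as higher, and 1 cathepsin as lower.

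Most other serpins that passed the filter were not called. Of the 8 Serpina3 genes outside the members, 1 passed the filter: Serpina3c, at 0.921 ± 0.414 CPM (SD, n = 8), 0.99 ± 0.592 CPM (SD, n = 7) and 0.969 ± 0.924 CPM (SD, n = 7) in the 3 groups, with log2 differences of 0.19 ± 0.35, 0.12 ± 0.44 and -0.06 ± 0.46, was not called. Serpina3a, Serpina3d-ps, Serpina3e-ps and Serpina3l-ps had at most 3 counts in any library. Of 4 tested serpins of clade A outside the cluster, Serpina10 rose in Winnie-Prolapse (3.54 ± 0.55, adjusted p = 9.08e-05 in edgeR), and Serpina9, the most abundant, was not called (-0.13 ± 0.54). Of 13 tested serpins of other clades, 3 rose and 1 fell, with Serpinb5 up by 1.02 ± 0.11 (adjusted p = 5.04e-06) and Serping1, the C1 inhibitor, up by 0.84 ± 0.16 (adjusted p = 0.000499), while the abundant Serpinb1a (0.27 ± 0.16) and Serpinb6a (-0.16 ± 0.13) were not called.

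Serpina3j and Serpina3b, which lie on either side of the members Serpina3f to Serpina3i, had another pattern. Serpina3j was at 171, 22.4, 91 and 5.32 CPM in Winnie-Prolapse replicates 2, 4, 5 and 6 and at most 0.184 CPM in the other 18 libraries. Serpina3b was at 11.2, 1.36, 3.11 and 3.91 CPM in the same 4 replicates and at most 0.82 CPM elsewhere. Neither passed the filter. Without it, Serpina3j was higher in Winnie-Prolapse than in C57BL/6 (edgeR, adjusted p = 0.000281), within the study's limits. Its C57BL/6 mean, 0.0226 CPM, was under the limit that 3 counts set, so no fold is given. Serpina3b was higher by 3.83 ± 1.17 (log2 ± SE, edgeR, adjusted p = 0.0171), outside the study's limits. The 8 squamous epithelium markers summed to 1640, 875, 174 and 251 CPM in these 4 replicates and to 2670 CPM in replicate 7, where Serpina3j was at 0.184 CPM, and to 4.17 and 2.33 CPM in replicates 1 and 3. Serpina3f, Serpina3g and Serpina3n were above every C57BL/6 library in replicates 1 and 3 also. The part of squamous tissue in the members' differences was not tested.

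Markers of other cells moved with the groups. The neutrophil marker S100a8 rose from 0.204 to 119 CPM in Winnie-Prolapse (adjusted p = 2.15e-07 in edgeR), and 5 of 6 tested neutrophil markers rose. The sum of the 7 neutrophil markers, most of it Ly6g in C57BL/6 and Winnie, was 243 to 359 CPM in C57BL/6 (4.17 CPM in replicate 7), 312 to 651 CPM in Winnie and 530 to 1870 CPM in Winnie-Prolapse, and the highest sum was in replicate 4, which was also highest for Serpina3f, Serpina3g and Serpina3n. The 8 macrophage markers rose (8 of 8) and summed to 105 to 139 CPM (59.6 CPM in replicate 7), 87.1 to 249 CPM and 177 to 337 CPM. The 9 colon epithelium markers summed to 12300 to 14700 CPM in C57BL/6 (19600 CPM in replicate 7), 10800 to 16500 CPM in Winnie and 7770 to 14000 CPM in Winnie-Prolapse, and the 5 smooth muscle markers fell (5 of 5). T and NK cell markers summed to 4.13 to 19.1 CPM in C57BL/6, 13.4 to 37 CPM in Winnie and 17.9 to 47 CPM in Winnie-Prolapse. In the same order, B and plasma cell markers summed to 309 to 642, 533 to 1550 and 1010 to 1870 CPM. Enteric glia markers summed to 262 to 565, 226 to 548 and 189 to 318 CPM. All of these lists had every marker detected in each group. Their part in the members' differences was not tested. Muc2 itself was at 3590, 2140 and 1890 CPM and was not called. In Winnie-Prolapse replicate 6, 18.9% of counts came from milk protein genes. Without this library, Serpina3f, Serpina3g and Serpina3n remained called against C57BL/6. Against Winnie, Serpina3n lost its edgeR call at an adjusted p under 0.05 without this library. The shares of all genes called without this library are not given here.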

How the data were processed

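Distal colon RNA of 22 mice was analysed. Groups, ages and sexes were read from the labels, and replicates were numbered in the order of the sample list. The authors selected poly(A) RNA and made stranded libraries, and STAR, featureCounts, limma and GRCm38 are named in the submitters' processing notes. The deposited table holds raw counts per gene, as whole numbers, with no normalization. The strand setting, the annotation release and the handling of multi-mapping reads are not given in the sources used here.

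Gene counts went into edgeR 4.0.16 under R 4.3.3 (quasi-likelihood F test, TMM factors, filterByExpr, Benjamini-Hochberg adjustment over all genes tested), each comparison on its own 2 groups, at the study's limits (adjusted p under 0.001, at least 1.5-fold). Sex was tested in all 22 libraries, adjusting for group. Sex and interaction calls needed an adjusted p under 0.05 whatever the fold. CPM is the count over the library total. Likeness used log2 CPM with TMM factors and a prior count of 2. The members, lists and tests were chosen with earlier results of these data known. The genes named were the members, the other Serpina3 genes, from each list the 4 most abundant genes and others added by name, the 5 most alike genes, and Muc2. Some of these are given in their list's counts alone. Some genes that the rule names are not reported here. Coding sequences were aligned with MAFFT 7.526. Pairs of libraries of 1 group differed by more than sampling noise (lowest chi-square per degree of freedom 28.83), so none was counted as a duplicate. The labels do not say how mice were housed or processed together, so p-values measure the spread between these samples. Alternatives were DESeq2 1.42.0, limma-voom of limma 3.58.1, library totals, other filters and thresholds, sex as a covariate, 1 sex alone, all groups in 1 fit and leaving out each library. Settings without the 3 Winnie males, and without Winnie-Prolapse replicates 4 and 6, were added after seeing the data. The tests were tested on simulated data.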

Additional observations from a re-analysis of the deposited data

Results flagged for a closer look

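In 18 groups of values (6 members in 3 groups), 4 had 1 library farther from its nearest neighbour, relative to the group's range, than the limit for a single outlying value allows. For independent, normally distributed values chance gives about 1 such group in 20. The members were measured in the same libraries and CPM from few counts need not be normal, so this rate may not apply. Winnie-Prolapse replicate 4 was far above the other 6 libraries for Serpina3g (107 CPM) and for Serpina3n (247 CPM). Winnie replicate 2 was far above its group for Serpina3h (0.352 CPM, 11 counts), and C57BL/6 replicate 5 for Serpina3i (0.193 CPM, 5 counts).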

How the results depend on the processing

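In the 3 group comparisons, 296 of 296 member fold changes computed under the alternatives were above 0. The members were chosen for a rise between these groups and the alternatives reuse the same libraries, so this is no support. Of the mean levels, 24 of 24 moved by less than 1 SD under other scaling or without Winnie-Prolapse replicate 6. This limit was wide, as the SDs were 33.5% to 125% of the means. The number of members called moved with the rules. In Winnie against C57BL/6 it was 0, and 3 at an adjusted p under 0.05, 3 with DESeq2, 1 with no filter, 1 with sex as a covariate, 2 with all 3 groups in one fit, 2 in males alone, 0 in females alone (also at 0.05), and 0 to 2 with 1 library left out (2 without Winnie replicate 5). In Winnie-Prolapse against C57BL/6 it was 3, and 6 with DESeq2, 6 with no filter, 5 with all 3 groups in one fit, 2 in males alone, 2 of those with at least 10 counts in every library, 1 in females alone and 3 to 4 with 1 library left out. In Winnie-Prolapse against Winnie it was 0, and 4 at an adjusted p under 0.05, 1 with DESeq2 and 0 in males alone, in females alone and with 1 library left out. At an adjusted p under 0.05, this last comparison called 0 members in males alone and 5 in females alone. The sex by Winnie interaction called 0 members, 1 with DESeq2 and 0 to 1 with 1 library left out (1 without C57BL/6 replicate 7). Settings added after seeing the data kept these counts at 0 (Winnie without its 3 males), 3 and 0 (Winnie-Prolapse without replicates 4 and 6, against C57BL/6 and Winnie). With no filter more members were tested. For the other changes the cause was not tested. The share of all genes called is not set beside each of these counts, so nothing about the members is read from them. For Serpina3n, males against females turned to -0.02 without Winnie-Prolapse replicate 4 (range to 0.34 with 1 library left out), and the sex by Winnie-Prolapse interaction to -0.05 with limma-voom and -0.61 without that replicate (range to 0.57). For Serpina3f this interaction turned to 0.05 without C57BL/6 replicate 1 (range from -1.02). Of the 5 genes most like each member, rank correlation kept 0 for Serpina3f, 3 for Serpina3g and 2 for Serpina3n, and leaving out 1 library kept 1 to 5, 2 to 5 and 3 to 5. Serpina3h, Serpina3i and Serpina3m are limited by depth in C57BL/6. No paired analysis was possible because the labels give no replicate numbers that groups share.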
